A study of Mus musculus with 20 samples.

Results

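Fatty acid synthesis in the small intestine of mouse pups was followed through 10 genes: Acly and Me1, which supply carbon and reducing power; Acaca and Fasn, which build palmitate; Elovl6, which lengthens it; Scd1 and Scd2, which desaturate it; and Srebf1, Mlxipl and Thrsp, which regulate the pathway. These are 10 of the 55487 genes in the deposited table. The set was chosen by measured values: Scd1 and Thrsp were higher in 7-week pups of dams with periodontitis, and the others were added as members of their pathway. The comparison of dams at 7 weeks therefore is given below as a description, with no test. The study sequenced polyA RNA of pup small intestine at 2 ages. At 2 weeks there were 5 libraries from pups of control dams and 5 from pups of dams with periodontitis, and at 7 weeks again 5 of each. Periodontitis was the condition of the dam, and the labels give the pups no treatment of their own. Strain, sex, litter, intestinal segment and the way periodontitis was induced are not given in the sources used here. Since nothing says that the libraries of a group came from separate litters, p-values measure only the spread between these libraries.

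De novo lipogenesis turns citrate exported from mitochondria into fatty acids. ATP citrate lyase (Acly) cleaves citrate to acetyl-CoA, acetyl-CoA carboxylase (Acaca) makes malonyl-CoA, and fatty acid synthase (Fasn) builds palmitate with NADPH that malic enzyme (Me1) helps to provide. SREBP-1, encoded by Srebf1, and ChREBP, encoded by Mlxipl, are the transcription factors through which insulin, oxysterols and sugar raise these enzymes in liver and fat. Enterocytes also make fatty acids, although in suckling pups most of the lipid they handle is absorbed from milk.

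Promoters of 8 of the 10 genes were found in the RefSeq table on GRCm38.p6, with 12 start sites between them; Scd1 and Scd2 have no entry. The windows run from 250 bases before to 50 bases after a start. They were searched on both strands for 5 short motifs, by their letters. These were CACGTG, known as the E-box; CCAAT, the box of the factor NF-Y; GGGCGG, the box of the factor Sp1; TCACCC, a piece of the sterol regulatory element; and TATAAA, the core of the classical start site. Of all 32851 promoter windows in the table, 7.15% held CACGTG, 37.41% CCAAT, 35.66% GGGCGG, 16.22% TCACCC and 13.62% TATAAA. The 250 bases before the start are shown for 3 genes: Fasn, which varied within groups together with Scd2, Acly and Acaca; Thrsp, 1 of the genes that led to the choice; and Srebf1, the regulator, at the innermost of its 3 starts. All 3 lie on the minus strand and are written 5′ to 3′, with every searched motif in capitals, in either orientation.
Fasn, chr11:120824548-120824797: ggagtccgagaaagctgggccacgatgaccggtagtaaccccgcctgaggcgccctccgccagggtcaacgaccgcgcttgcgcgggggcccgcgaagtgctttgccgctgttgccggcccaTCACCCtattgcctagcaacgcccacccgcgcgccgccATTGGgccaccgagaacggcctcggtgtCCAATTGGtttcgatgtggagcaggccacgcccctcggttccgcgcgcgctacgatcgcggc
Thrsp, chr7:97417551-97417800: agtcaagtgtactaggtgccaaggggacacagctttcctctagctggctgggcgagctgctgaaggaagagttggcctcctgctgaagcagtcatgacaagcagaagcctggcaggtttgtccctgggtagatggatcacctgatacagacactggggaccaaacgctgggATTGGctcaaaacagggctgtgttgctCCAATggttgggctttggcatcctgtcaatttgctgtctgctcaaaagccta
Srebf1, chr11:60210472-60210721: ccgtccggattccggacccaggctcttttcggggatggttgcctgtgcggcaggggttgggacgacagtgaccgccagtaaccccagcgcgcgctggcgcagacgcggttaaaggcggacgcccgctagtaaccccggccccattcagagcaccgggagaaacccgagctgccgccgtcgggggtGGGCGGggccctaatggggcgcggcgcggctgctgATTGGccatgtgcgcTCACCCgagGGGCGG
The Fasn window held CCAAT in 3 places, the inner 2 overlapping in the run CCAATTGG, and TCACCC once. The Thrsp window held CCAAT in 2 places and none of the other 4 motifs. The Srebf1 window held GGGCGG in 2 places and both CCAAT and TCACCC once. Among the other genes the E-box occurred only in the outer of the Mlxipl windows, and the Acaca and Elovl6 windows held none of the 5 motifs. The Acaca window, 84195188 to 84195487, lies inside the gene, and the outermost Acaca start, at 84129672, was not searched. A match is a description of these letters, not evidence that a factor binds there.

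Library totals ran from 14.88 to 42.56 M counts, and levels are given as counts per M counts (CPM) after scaling of library sizes by the trimmed mean of M-values (TMM). Enterocyte genes were abundant in all groups, with group means of 1210 to 2108 CPM for Epcam. Control library 5 at 2 weeks stood apart: it had the lowest total and 29.4% of its counts on mitochondrial genes. Periodontitis library 5 at 7 weeks also stood apart, in its cell type markers and in several of the genes described here. Its enterocyte markers summed to 52302 CPM against 120037 to 141234 CPM in the other 4 libraries of its group and 85596 to 144267 CPM in 7-week controls. Its proliferation markers summed to 370 CPM against 153 to 211 and 167 to 252 CPM, and its glia and Schwann cell markers to 48.3 CPM against 295 to 621 and 121 to 382 CPM. The part of this makeup in its values was not tested. Without this library the 7-week log2 difference between dams was 1.94 ± 0.29 for Scd1, 1.78 ± 0.32 for Thrsp and -0.55 ± 0.29 for Scd2, against -0.14 ± 0.33 for Scd2 with it. Markers of gut region and of pancreas also differed between the ages: the ileal hormone gene Fgf15 lay between 39.5 and 126 CPM in the 2-week libraries and at 0 in all 7-week libraries, and exocrine pancreas markers summed to 140 to 1513 CPM at 2 weeks and 5.58 to 11.6 CPM at 7 weeks. Age and the tissue sampled therefore cannot be told apart. In whole tissue, fewer cells of a type and less RNA per cell cannot be told apart either.

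All 10 genes passed the filter on low counts, as did 17464 genes in all. At 2 weeks 0 of the 10 genes differed between dams by edgeR's quasi-likelihood test (Benjamini-Hochberg adjusted p under 0.05), where 0.0286% of all genes did. Scd2 alone of the 10 had an unadjusted p under 0.05. DESeq2 called 0 of the 10 and limma-voom with sample quality weights called 5. Between 2 and 7 weeks in control pups 9 of the 10 passed edgeR's test, 5 lower and 4 higher at 7 weeks, against 61.5% of all genes tested (34.4% lower and 27.1% higher). The 7-week control libraries took part in the choice of Scd1 and Thrsp, so for these genes the age comparison is not an independent test. At 7 weeks Scd1 was the only 1 of the 10 whose dam groups did not overlap, and 0.527% of all genes had groups that did not overlap. That contrast chose the genes, so nothing is read from its count.

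**Figure D1:**
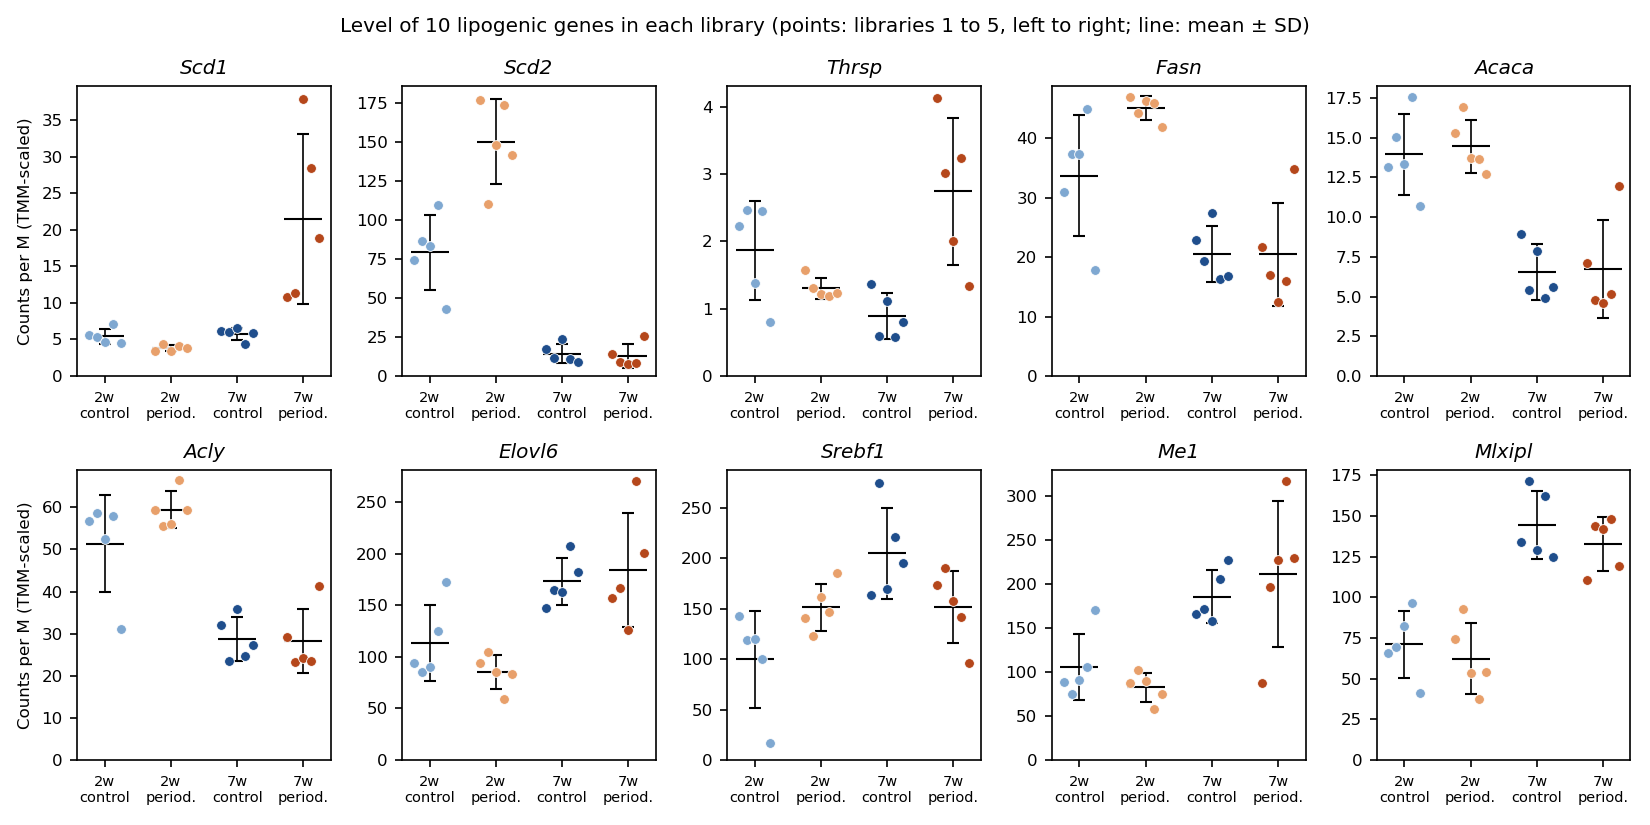
Level of each of the 10 genes in CPM (vertical axis, TMM-scaled) in the 4 groups (horizontal axis). Points are libraries 1 to 5 from left to right and the line is the mean ± SD; all 5 periodontitis libraries at 7 weeks lie above the controls for Scd1, and the 2-week libraries lie far above the 7-week libraries for Scd2.

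Acly, 1 gene of carbon supply, showed an age difference and no called difference between dams. Acly (ENSMUSG00000020917; chromosome 11, 100476353 to 100528000, minus strand) lay between 31.1 and 58.6 CPM in 2-week control libraries and between 23.6 and 35.9 CPM in 7-week control libraries. The groups overlapped only through control library 5 at 2 weeks, the lowest of its group. Acly fell by 0.84 ± 0.18 on the log2 scale (SE, n = 5 and 5; edgeR adjusted p = 0.000649), to means of 28.7 from 51.4 CPM. At 2 weeks the periodontitis libraries lay between 55.6 and 66.6 CPM, a log2 difference of 0.21 ± 0.18 from controls (edgeR adjusted p = 0.618). At 7 weeks they lay between 23.3 and 41.2 CPM, within or close to the control range except for library 5, which was the highest.

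Me1 moved the other way with age. The gene (ENSMUSG00000032418; chromosome 9, 86581371 to 86695953, minus strand) encodes the cytosolic malic enzyme. Its level was 106 ± 37.6 CPM (mean ± SD, n = 5) in control pups at 2 weeks and 186 ± 29.8 CPM at 7 weeks. That rise was 0.81 ± 0.27 on the log2 scale (edgeR adjusted p = 0.0125), although the 2-week control library 5, at 171 CPM, lay inside the 7-week range. Pups of dams with periodontitis had 82.6 ± 16.8 CPM at 2 weeks, a log2 difference of -0.36 ± 0.26 from controls (edgeR adjusted p = 0.547). At 7 weeks their libraries spread from 87.4 to 317 CPM and enclosed the whole control range of 158 to 228 CPM.

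The palmitate-building enzymes Acaca and Fasn were both lower at 7 weeks. Acaca (ENSMUSG00000020532; chromosome 11, 84129672 to 84401651, plus strand) was between 10.7 and 17.6 CPM in 2-week control libraries and between 4.94 and 8.95 CPM in 7-week control libraries. The age groups did not overlap, as was the case for 45.7% of all genes, and Acaca fell by 1.09 ± 0.24 on the log2 scale (edgeR adjusted p = 0.0007). Between dams its mean levels were nearly equal at both ages, with 14.5 against 14.0 CPM at 2 weeks (log2 difference 0.05 ± 0.24, 95% interval -0.45 to 0.55; edgeR adjusted p = 0.942) and 6.73 against 6.55 CPM at 7 weeks. Leaving out control library 5 at 2 weeks turned the sign of that small 2-week difference, to -0.03.

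Fasn (ENSMUSG00000025153; chromosome 11, 120805846 to 120824547, minus strand) was at 31.0, 37.4, 37.4, 45.0 and 17.8 CPM in 2-week control libraries. In 2-week periodontitis libraries it was at 46.9, 44.3, 46.2, 45.9 and 41.9 CPM. The periodontitis libraries were close together and the control libraries were not, with SDs of 2.00 and 10.2 CPM. The groups overlapped, and the log2 difference of 0.42 ± 0.24 did not pass (95% interval -0.10 to 0.93; edgeR adjusted p = 0.452). At 7 weeks the control libraries stood at 22.9, 19.4, 27.4, 16.3 and 16.8 CPM and the periodontitis libraries at 21.8, 17.1, 12.5, 16.1 and 34.9 CPM. The 7-week means, 20.5 CPM in each group, were set in the periodontitis group partly by library 5, the highest of all 10; without it the log2 difference was -0.28 ± 0.22. From 2 to 7 weeks in control pups Fasn fell by 0.72 ± 0.25 on the log2 scale (edgeR adjusted p = 0.0162).

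Elovl6, the elongase that turns palmitate into stearate, was higher at 7 weeks. The gene (ENSMUSG00000041220; chromosome 3, 129532355 to 129638495, plus strand) was at 114 ± 36.7 CPM in control pups at 2 weeks and at 173 ± 23.1 CPM at 7 weeks. It rose by 0.61 ± 0.22 on the log2 scale (edgeR adjusted p = 0.0194), a call lost when any of 3 control libraries was left out. Libraries 2 and 3 at 2 weeks and library 4 at 7 weeks were those, with edgeR adjusted p of 0.0546, 0.0507 and 0.0511. Pups of dams with periodontitis had 85.4 ± 16.8 CPM at 2 weeks (log2 difference -0.41 ± 0.22; edgeR adjusted p = 0.395) and 185 ± 55.1 CPM at 7 weeks (log2 difference 0.09 ± 0.22, given as a description).

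Scd1 and Scd2 lie close together on chromosome 19 and differed in nearly every respect. Both encode stearoyl-CoA desaturases, which put the first double bond into saturated fatty acids; Scd1 is the main form of adult liver and fat, and Scd2 is known from brain and from developing tissues. Scd1 (ENSMUSG00000037071) spans 44394455 to 44407879 on the minus strand, and Scd2 (ENSMUSG00000025203) spans 44293674 to 44306864 on the plus strand. Of the 50-base windows of their transcripts, 4.56% in Scd1 and 3.75% in Scd2 occur also in another Scd gene. At 2 weeks Scd2 was far above Scd1, with means of 79.4 against 5.46 CPM in controls and 150 against 3.83 CPM in periodontitis pups. A small share of Scd2 reads given to Scd1 could therefore weigh in the 2-week Scd1 level and its ratio to Scd2, which was not tested.

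Scd1 was at 6.14, 5.98, 6.56, 4.32 and 5.84 CPM in control libraries 1 to 5 at 7 weeks. The periodontitis libraries of that age were at 10.8, 11.3, 38.0, 28.5 and 18.9 CPM. Each of the latter was above all controls, with libraries 3 and 4 the highest. The fitted log2 difference was 1.90 ± 0.28, or 3.72-fold, and is a description because it chose the gene. At 2 weeks the order was opposite. The 2-week control libraries held 5.60, 5.29, 4.66, 7.15 and 4.59 CPM and the periodontitis libraries 3.48, 4.37, 3.37, 4.04 and 3.89 CPM. All 5 periodontitis libraries lay below all 5 controls, as did 3.54% of all genes, and the log2 difference of -0.52 ± 0.27 did not pass (95% interval -1.09 to 0.06; edgeR adjusted p = 0.395). Scd1 was the only 1 of the 10 genes with no called age difference in control pups (log2 difference 0.07 ± 0.27, 95% interval -0.50 to 0.65; edgeR adjusted p = 0.825). The 7-week control libraries in that comparison took part in the choice of Scd1.

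Scd2 was higher in the 2-week than in the 7-week libraries. It was at 74.1, 86.7, 83.7, 109 and 43.3 CPM in 2-week control libraries and at 17.2, 11.3, 23.9, 10.6 and 8.89 CPM in 7-week control libraries. The ages did not overlap, and Scd2 was 5.52-fold lower at 7 weeks, a log2 difference of -2.46 ± 0.34 (edgeR adjusted p = 7.77e-06). The 2-week periodontitis libraries were at 177, 111, 148, 174 and 142 CPM. All 5 were above the highest control library, as was the case for 3.71% of all genes, but their lowest exceeded it by little. The log2 difference of 0.92 ± 0.32 (95% interval 0.23 to 1.61) had an unadjusted p of 0.0102 and did not pass after adjustment over all genes (edgeR adjusted p = 0.194). At 7 weeks periodontitis libraries were at 14.4, 8.75, 7.76, 8.29 and 25.9 CPM, overlapping the controls, again with library 5 the highest.

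The balance of the 2 desaturases stood at another level in each of the 4 groups. On the scale of CPM per kilobase of exon, which allows levels of different genes to be compared, the ratio of Scd2 to Scd1 in 2-week control libraries was lowest at 8.45, with a median of 13.7 and a maximum of 16.1. In 2-week periodontitis libraries it ran from 22.7 to 45.6, with a median of 38.5. In 7-week controls it ran from 1.36 to 3.26 and in 7-week periodontitis libraries from 0.183 to 1.23. The 4 groups did not overlap in this ratio. Because the ratio contains Scd1, which was used to choose the genes, it carries no test.

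**Figure D2:**
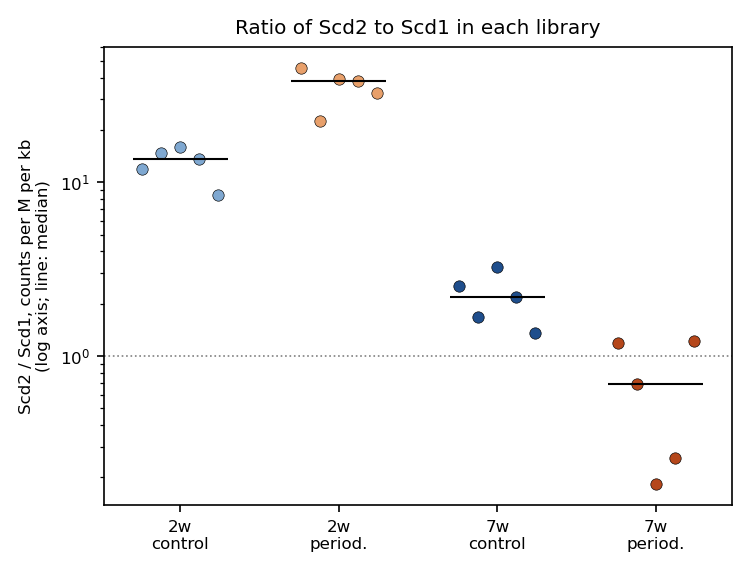
Ratio of Scd2 to Scd1 in CPM per kilobase (vertical axis, logarithmic) in the 4 groups (horizontal axis); points are libraries 1 to 5 from left to right, lines are medians and the dotted line marks equal levels. The ratio lies above 8 in all 2-week libraries and below 1 in 3 of the 5 periodontitis libraries at 7 weeks.

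Srebf1 (ENSMUSG00000020538; chromosome 11, 60199089 to 60222581, minus strand) rose with age in control pups, with 1 library far from the rest. It was at 143, 119, 119, 101 and 17.1 CPM in 2-week control libraries and at 163, 275, 170, 221 and 195 CPM in 7-week control libraries. The ages did not overlap and Srebf1 rose by 1.04 ± 0.34 on the log2 scale (edgeR adjusted p = 0.0127), or by 0.77 ± 0.19 without control library 5 at 2 weeks. The call was lost in a fit to those 2 groups alone (edgeR adjusted p = 0.0655). In 2-week periodontitis libraries it was at 141, 123, 161, 147 and 185 CPM, a log2 difference of 0.60 ± 0.34 from controls (edgeR adjusted p = 0.435), which became 0.33 ± 0.18 without control library 5. At 7 weeks the periodontitis libraries were at 173, 190, 158, 142 and 95.8 CPM. They overlapped the controls, with 3 of 5 below all of them, and the log2 difference was -0.43 ± 0.34. With the scores of adipocyte markers described below as a covariate it was -0.94 ± 0.46, or -0.95 ± 0.47 for the score without Cidec.

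Mlxipl, which encodes the sugar-responsive factor ChREBP, rose with age in control pups. The gene (ENSMUSG00000005373; chromosome 5, 135089890 to 135138382, plus strand) was between 41.4 and 96.8 CPM in 2-week controls and between 125 and 172 CPM in 7-week controls. It rose by 1.02 ± 0.22 on the log2 scale without overlap (edgeR adjusted p = 0.000621). The 2-week periodontitis libraries lay between 37.4 and 92.9 CPM (log2 difference -0.19 ± 0.22; edgeR adjusted p = 0.709), a difference that limma-voom with quality weights called. The 7-week periodontitis libraries lay between 111 and 148 CPM (log2 difference -0.12 ± 0.22, a description). An antisense transcript shares 4.24% of the exonic bases of Mlxipl, and the strandedness of counting is not given in the sources used here.

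Thrsp encodes the lipogenic cofactor Spot 14, an abundant protein of fat and of lactating mammary gland. The gene (ENSMUSG00000035686; chromosome 7, 97412938 to 97417730, minus strand) was the least counted of the 10, with 10 to 115 counts in a library. At 7 weeks it was at 1.36, 0.588, 1.12, 0.584 and 0.805 CPM in control libraries and at 4.13, 3.02, 2.01, 3.24 and 1.33 CPM in periodontitis libraries. Periodontitis libraries 1 to 4 were above all controls and library 5 was just below the highest control. The fitted log2 difference was 1.60 ± 0.34, or 3.03-fold, a description. The 2-week controls held 2.23, 2.46, 1.39, 2.44 and 0.805 CPM and the 2-week periodontitis libraries 1.57, 1.30, 1.22, 1.19 and 1.23 CPM. Those groups overlapped (log2 difference -0.54 ± 0.32; edgeR adjusted p = 0.455). In control pups Thrsp fell by 1.08 ± 0.33 on the log2 scale from 2 to 7 weeks (edgeR adjusted p = 0.00883). The 7-week control libraries took part in the choice of Thrsp, so that p-value is not an independent test.

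Several adipocyte markers were higher in 4 of the 5 periodontitis libraries at 7 weeks, and the groups overlapped. Of the 8 markers that define adipocytes, Adipoq, Cfd, Retn, Plin1 and Car3 were above all 7-week controls in periodontitis libraries 1 to 4, while Adrb3 and Cidec overlapped the controls and Lep reached 3 counts over the whole periodontitis group and 0 over the controls. Cidec stood at 94.7 CPM or more in every 7-week library and dominates the sum of the 8, which ran from 180 to 341 CPM in controls and from 96.9 to 351 CPM in periodontitis libraries. The full list of 20 adipocyte genes, many of which enterocytes also express, summed to 676 to 843 CPM in controls and 497 to 894 CPM in periodontitis libraries. Without Cidec, the sum of Adipoq, Cfd, Retn and Plin1 was 0.506 to 1.53 CPM in the 7-week controls. It was 18.5, 14.1, 12.8, 50.8 and 0.202 CPM in periodontitis libraries 1 to 5. Library 5, with Adipoq and Plin1 at 0, was below every control by this sum, and held 18.9 CPM of Scd1 and 1.33 CPM of Thrsp. With a score of those 4 genes as a covariate, the 7-week log2 difference of Scd1 was 1.67 ± 0.33 and that of Thrsp 0.80 ± 0.36. At 7 weeks the score was -2.90 to -1.71 in controls, 0.91 to 2.66 in periodontitis libraries 1 to 4 and -3.49 in library 5. Outside library 5 the score and the dam therefore cannot be told apart, and the part of adipocytes in these differences was not tested. At 2 weeks the same sum was 0.320 to 1.21 CPM in periodontitis pups and 1.21 to 7.04 CPM in controls. The groups met at nearly equal values, 1.20715 CPM in periodontitis library 5 and 1.20732 CPM in control library 5. Adipoq, Cfd and Plin1 each overlapped between the dams at that age, and Retn did not. With the covariate the 2-week difference of Thrsp was -0.04 ± 0.31. The age difference of Thrsp in control pups was not called with it (edgeR adjusted p = 0.125).

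**Figure D3:**
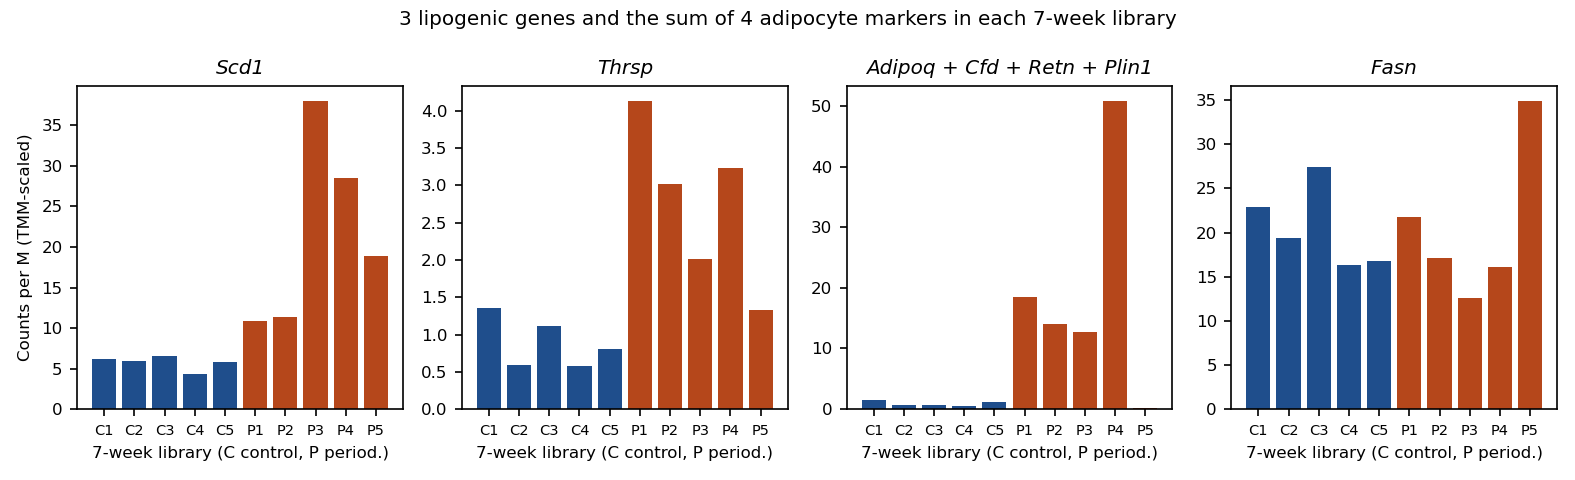
Level in CPM (vertical axes) of Scd1, Thrsp, the sum of 4 adipocyte markers and Fasn in each 7-week library (horizontal axes; blue, control libraries C1 to C5; red, periodontitis libraries P1 to P5). Library P5 has 18.9 CPM of Scd1 with a marker sum of 0.202 CPM, and the highest Fasn at 34.9 CPM.

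Among the other marker lists, the sums of 2 separated the dams at 2 weeks. The sum of 8 genes of weaned enterocytes was 3939 to 8957 CPM in controls and 1750 to 3874 CPM in periodontitis libraries. The sum of 8 immune genes was 62.6 to 126 CPM in controls and 134 to 159 CPM in periodontitis libraries, mostly Csf1r, a receptor of macrophages. Neither sum overlapped between the groups, and their part in the 2-week values of Scd1 and Scd2 was not tested. At 7 weeks none of the cell type lists had sums that separated the dams. Over the ages the enterocyte sum also differed, with medians of 41416 CPM in 2-week and 127271 CPM in 7-week control libraries.

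**Figure D4:**
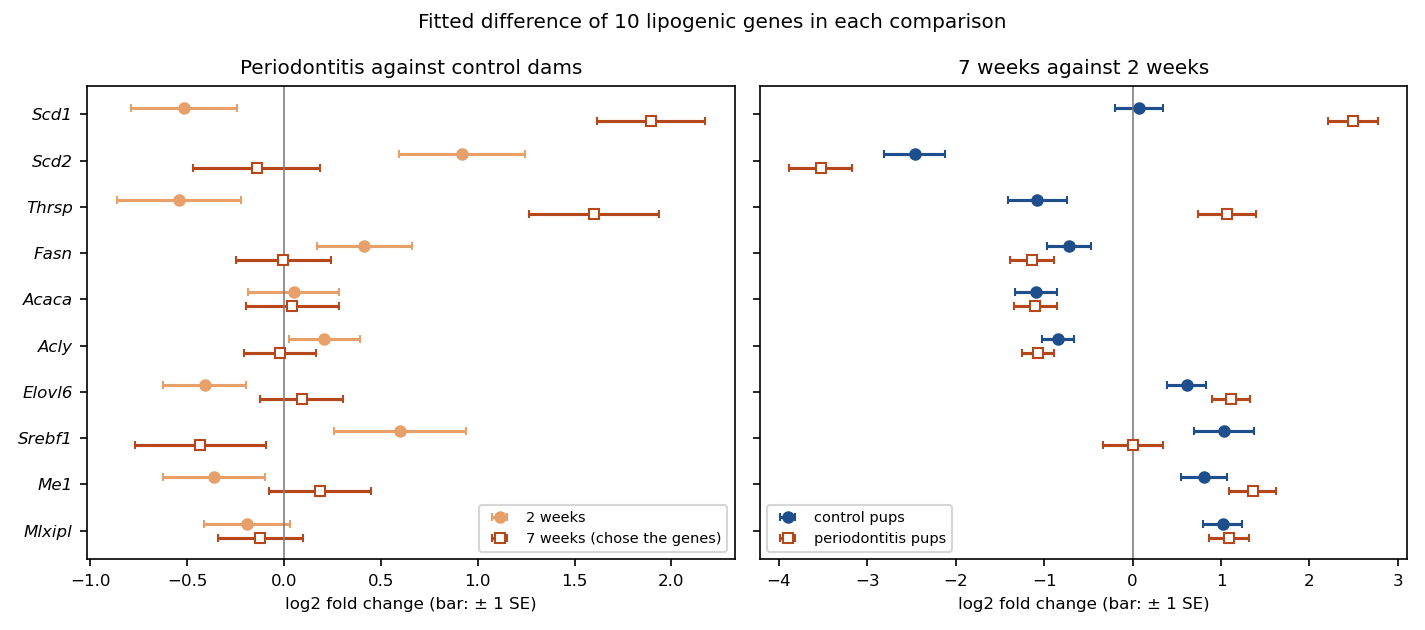
Fitted log2 fold change (horizontal axes) with 1 SE on either side for each gene, between dams at each age (left) and between ages in each kind of pup (right). Open squares rest on the 7-week periodontitis libraries that chose the genes and carry no test; Scd1 and Thrsp lie below 0 at 2 weeks and above it at 7 weeks.

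The calls at 2 weeks depended on the test. Limma-voom with quality weights gave control library 5 a weight of 0.0402, the lowest of the 2-week libraries, where the others had 0.624 to 4.82. Under it Scd2 (log2 difference 0.82, adjusted p = 8.00e-05), Fasn (0.33, adjusted p = 0.0175) and Srebf1 (0.38, adjusted p = 0.0292) were called higher in pups of dams with periodontitis. Thrsp (-0.70, adjusted p = 0.00686) and Mlxipl (-0.43, adjusted p = 0.015) were called lower. The same fit called 5170 genes in all, against 5 for edgeR. Leaving out control library 5 at 2 weeks in edgeR called 0 of the 10, with a log2 difference of 0.76 ± 0.32 for Scd2 (edgeR adjusted p = 0.314).

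Between 2 and 7 weeks, pups of dams with periodontitis are described without a test. The log2 differences were -3.52 ± 0.36 for Scd2, -1.14 ± 0.25 for Fasn, -1.10 ± 0.24 for Acaca and -1.07 ± 0.19 for Acly. They were 1.36 ± 0.27 for Me1, 1.11 ± 0.22 for Elovl6 and 1.09 ± 0.22 for Mlxipl. These 7 genes had the signs seen in control pups. Scd1, at 2.49 ± 0.28 against 0.07 ± 0.27 in controls, Thrsp, at 1.07 ± 0.32 against -1.08 ± 0.33, and Srebf1, at 0.01 ± 0.34 against 1.04 ± 0.34, had other values. Whether the age differences of the 2 kinds of pup differ was not tested, because the 7-week periodontitis libraries chose the genes.

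Levels per kilobase of exon allow the 10 genes to be ordered within each group. In 2-week control pups Me1 had the highest mean, 27.6 CPM per kilobase, followed by Srebf1, Elovl6, Scd2, Mlxipl and Acly, each of which overlapped the next. Acly (9.73), Fasn (3.08) and Scd1 (1.12) were separated without overlap, and Thrsp (0.852) and Acaca (0.817) came last and overlapped. In 2-week periodontitis pups Scd2 came first, at 27.5 CPM per kilobase, overlapping Srebf1 (26.8), and Thrsp came last. In 7-week control pups Me1 led with 48.3 and Acaca was last with 0.384 CPM per kilobase, and Scd2 was in sixth place with 2.63. In 7-week periodontitis pups Scd1, at 4.39 CPM per kilobase, stood in sixth place above Scd2, at 2.38, and overlapped it.

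Other genes of the pathway were taken from 5 lists. At 2 weeks edgeR called 0 genes of any list between dams. Of 12 genes of substrate and NADPH supply, Me2, the mitochondrial malic enzyme, came closest, at 161, 165, 155, 203 and 176 CPM in controls and 115, 121, 63.0, 44.4 and 50.7 CPM in periodontitis libraries. Those groups did not overlap, and the log2 difference was -1.13 ± 0.25 (edgeR adjusted p = 0.0579). Acot12, Abca1 and Gpat3 were also lower without overlap, and Fads1 and Usf2 higher; their edgeR adjusted p ran from 0.174 to 0.778. With Me2 these are 4 lower and 2 higher of 64 tested genes on the lists, or 6.25% and 3.12%, where 3.54% and 3.71% of all genes were so, and nothing is read from that count.

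Over the 5 lists 39 of 64 tested genes (60.9%) were called between ages in control pups, a share close to the 61.5% of all genes. The counts for each list stand beside 27.1% of all genes called higher and 34.4% called lower, and describe the lists only. In substrate and NADPH supply 8 of 12 tested genes rose and 0 fell, with a median log2 difference of 0.94 beside -0.13 over all genes. Among them were Pklr (2.02 ± 0.25; edgeR adjusted p = 2.14e-06), a pyruvate kinase, and the NADPH-making dehydrogenases Pgd (1.63 ± 0.20; adjusted p = 2.20e-06), G6pdx (1.56 ± 0.17; adjusted p = 6.21e-07) and Idh1 (1.38 ± 0.15; adjusted p = 4.74e-07). In elongation and desaturation 8 of 15 tested genes fell and 1 rose, so that the number called was also close to the share of all genes, and the median was -1.01. Elovl2 (-3.54 ± 0.58; edgeR adjusted p = 4.60e-05) and Elovl4 (-2.70 ± 0.54; adjusted p = 0.000279), which make very long chains, were at 0 to 5 and 0 to 6 counts in the 7-week control libraries. Elovl5 (-1.07 ± 0.17; adjusted p = 2.63e-05) and Hacd1 (-1.01 ± 0.22; adjusted p = 0.000547) also fell. Scd3 had 4 and 8 counts over the control and periodontitis groups at 2 weeks and 0 at 7 weeks.

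Genes on the lists of regulators and of triglyceride synthesis changed in both directions with age. Of 19 tested genes on the regulator list, which also holds targets such as Mylip, 7 rose and 3 fell. Their median was 0.15, and of all genes 27.1% rose and 34.4% fell. Insig1 (1.68 ± 0.18; edgeR adjusted p = 5.41e-07) and Insig2 (1.55 ± 0.15; adjusted p = 1.11e-07), which hold SREBP in the endoplasmic reticulum, and Nr1h3 (1.52 ± 0.15; adjusted p = 1.80e-07), the oxysterol receptor LXR alpha, rose. Mylip (-2.44 ± 0.17; adjusted p = 3.57e-09), an LXR target that degrades the LDL receptor, fell. Of 13 genes of triglyceride synthesis 7 rose and 3 fell, with a median of 0.93, among them Gpat3 (2.11 ± 0.20; adjusted p = 1.26e-07), Agpat2 (1.84 ± 0.27; adjusted p = 1.66e-05) and Agpat1 (1.60 ± 0.28; adjusted p = 7.16e-05) upward and Lpin1 (-1.80 ± 0.20; adjusted p = 7.36e-07) downward. Of 5 genes listed beside the carboxylase 2 rose, Mlycd (1.12 ± 0.31; adjusted p = 0.00459), which breaks down malonyl-CoA, and Oxsm (0.55 ± 0.16; adjusted p = 0.0052), and 0 fell.

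At 7 weeks the same lists are given as a description. Insig1 had the largest difference of the genes on the regulator list with a mean log2 CPM of at least 1. It was at 204, 244, 231, 213 and 194 CPM in control libraries and at 146, 164, 116, 110 and 77.3 CPM in periodontitis libraries. The groups did not overlap, as was the case for 0.527% of all genes in either direction, and the log2 difference was -0.82 ± 0.18. Insig1 was named for the size of its difference, so nothing is read from the lack of overlap. Of the other genes on the regulator list Abca1 differed by 0.56 ± 0.36, Ppargc1b by 0.35 ± 0.17 and Srebf2 by -0.31 ± 0.26. In substrate supply the largest differences were -0.31 ± 0.24 for Pklr and -0.31 ± 0.18 for Acss2. Among the genes listed beside the carboxylase the largest was 0.28 ± 0.35 for Acacb. In triglyceride synthesis Lpin2 led with 0.37 ± 0.25. Among elongation and desaturation genes with a mean log2 CPM of at least 1, Elovl5 had the largest difference, -0.23 ± 0.17. The desaturase Fads2 was at 59.3 CPM in periodontitis library 5, the library with the low enterocyte sum, and at 6.36 to 11.5 CPM in the other 4, and Fads1 at 42.0 CPM against 7.37 to 9.36 CPM.

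Within groups, the 10 genes fell into sets that varied together. Pearson's r of the deviations from the group means of log2 CPM was computed over 20 libraries as a description; the points share library and depth, and 2 libraries that stood apart lie far from the others. Scd2 and Fasn had an r of 0.93, Fasn and Acly 0.90, Scd2 and Acly 0.90, Fasn and Acaca 0.87, Scd2 and Acaca 0.85 and Acaca and Acly 0.81. Elovl6 and Me1 had an r of 0.71. Scd1 stood outside these sets: its highest r was 0.40, with Me1, and its r with Thrsp was -0.02. Thrsp had its highest r, 0.52, with Srebf1.

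**Figure D5:**
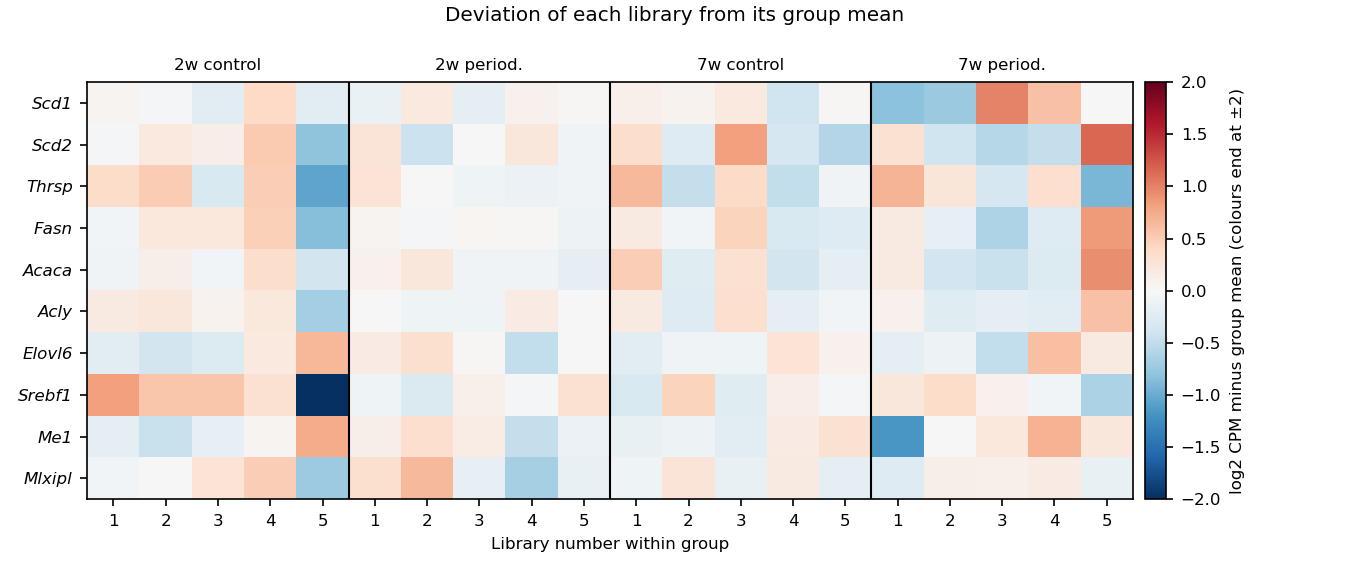
Deviation of log2 CPM of each gene (rows) from its group mean in each of the 20 libraries (columns, by group); red is above and blue below the mean, and colours end at 2 either way. Scd2, Fasn, Acaca and Acly are above their mean together in periodontitis library 5 at 7 weeks and below it together in control library 5 at 2 weeks.

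The genes whose deviations were most like those of 4 members were sought among 11715 genes, over the same 20 libraries. For Fasn these were Bysl (r 0.95), Alyref (0.94), Cdc42ep1 (0.94), Cad (0.93) and Sars2 (0.93). For Scd2 they were Tmem176b (0.95), Bmp4 (0.95), Akr1b3 (0.94), Gm2a (0.94) and Sod3 (0.93). The nearest genes were less like Scd1, with Kdsr (0.82), Pola2 (0.81), Klhl24 (0.78), Bcorl1 (0.76) and Hbb-bs (0.75). Thrsp was nearest to Naa38 (0.80), Zc3h12a (0.80), Cyth4 (0.78), Etv3 (0.77) and Zbed4 (0.76).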

How the data were processed

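PolyA RNA of 20 libraries was measured by RNA-seq. The deposited values are expected counts per gene, which the authors made with RSEM 1.3.3 after cutadapt 4.8, FastQC 0.11.8 and STAR 2.7.8a, per the submitters' processing notes. Those notes name GRCh38 beside GRCm38 as builds; annotation release and strandedness are not given in the sources used here. Groups and replicate numbers came from the labels. The 4 lines that name no mouse gene hold 0 counts, and rounding changed 0 values.

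In R 4.3.3, edgeR 4.0.16 kept 17464 genes by filterByExpr, scaled libraries by TMM and fitted 1 mean per group to all 20 libraries by robust quasi-likelihood (16 residual degrees of freedom). Adjusted p-values are Benjamini-Hochberg values over every tested gene, and the threshold was 0.05. SEs are worked back from the test statistic. Log2 CPM used a prior count of 2. The procedure was tested on simulated data. Coordinates and exon lengths are those of GENCODE M21 on GRCm38. No pair of libraries of a group agreed within sampling noise.

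The members and the lists of genes were chosen with earlier results of these data known. All 10 members are named. Of each pathway list, up to 4 genes with the smallest p among those called, or for 7 weeks the largest log2 differences at a mean log2 CPM of at least 1, are named. Me2, Acot12, Gpat3 and other genes without overlap at 2 weeks, Scd3 and the Fads genes were named after their values were seen. The covariate without Cidec was added after the data were seen. The alternatives tried were limma-voom (limma 3.58.1), DESeq2 1.42.0 and DESeq2 size factors within edgeR, 2 other filters, fits to the compared groups, a fit that was not robust, a block on replicate number, adipocyte covariates and leaving out libraries.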

Additional observations from a re-analysis of the deposited data

Results flagged for a closer look

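Thrsp in periodontitis library 1 at 2 weeks was at 1.57 CPM, above the other 4 by a gap that was large for the range of the group: the next library was at 1.30 CPM and the lowest at 1.19 CPM. Acly in control library 5 at 2 weeks was at 31.1 CPM, below the next at 52.5 CPM and the highest at 58.6 CPM. Of 40 groups of 5 libraries that were checked these were the 2 with such a gap, and chance gives about 1 in 20. Scd1 lay lower in all periodontitis libraries than in all controls at 2 weeks and higher in all at 7 weeks. Its log2 differences at the 2 ages were 2.41 apart, and the difference was not tested, since the 7-week libraries chose the gene.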

How the results depend on the processing

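At 2 weeks the counts of members called, 0 higher and 0 lower, changed under limma-voom with quality weights, to 3 higher and 2 lower, and under no other setting. The small 2-week difference of Acaca changed sign to -0.0303 under limma-voom, to -0.20 and -0.24 with the adipocyte score with and without Cidec, and to -0.0313 without the 2 libraries that stood apart. Over left-out libraries it ran from -0.0298, without control library 5 at 2 weeks, to 0.15, and was -0.013 without periodontitis library 2. With the same scores the 7-week difference of Thrsp was 0.86 and 0.80, that of Srebf1 -0.94 and -0.95, and that of Thrsp between ages in periodontitis pups 0.39 and 0.26. The age difference of Srebf1 in periodontitis pups became -0.42 and -0.48 with them, and that of Scd1 in control pups was -0.0035 without both libraries. Over left-out libraries the 7-week difference of Scd1 ran from 1.59 to 2.06 and of Thrsp from 1.40 to 1.80. Age calls in control pups ran from 3 to 4 higher and 4 to 5 lower: besides those given above, Fasn was not called without control library 4 at 2 weeks (edgeR adjusted p = 0.0533). Genes called in all numbered 5 at 2 weeks and 2 at 7 weeks, and 0 to 5170 and 0 to 32 over the alternatives. Replicate numbers did not pair libraries: over 20 same-numbered pairs r ran from -0.397 to 0.288, and 3 correlated best with their own number. With the replicate number as a block, calls remained 0 and 0 at 2 weeks and 4 higher and 5 lower for age, the 7-week log2 differences were 1.81 for Scd1 and 1.54 for Thrsp, and between ages in periodontitis pups 2.41 for Scd1 and 0.99 for Thrsp. Thrsp, with as few as 10 counts in a library, is the member that depth limits most.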

Other observations

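Slc2a5 and Khk, genes of fructose handling named after their values were seen, are given beside the lipogenic genes for the same libraries. Slc2a5, the fructose transporter of the brush border, was at 1228, 1260, 1135, 1063 and 1104 CPM in 7-week control libraries 1 to 5 and at 937, 852, 395, 272 and 369 CPM in periodontitis libraries. All periodontitis libraries were below all controls, and 0.527% of all genes had 7-week groups that did not overlap, in either direction. Libraries 3, 4 and 5 were lowest, which are also the 3 with the most Scd1, although in another order. A link between the genes was not tested. Khk, the ketohexokinase, overlapped, at 1286 ± 199.6 CPM in controls and 1211 ± 226 CPM in periodontitis pups (SD, n = 5). In control pups Slc2a5 rose by 4.90 ± 0.38 and Khk by 2.91 ± 0.38 on the log2 scale from 2 to 7 weeks (edgeR adjusted p = 1.17e-08 and 4.42e-06).

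Lpl, the lipoprotein lipase of fat and muscle vessels, was at 6.63, 5.30, 5.58, 5.22 and 4.91 CPM in 7-week control libraries and at 6.92, 8.85, 14.0, 34.5 and 8.82 CPM in periodontitis libraries. The groups did not overlap, as was the case for 0.527% of all genes, and library 5, in which Adipoq was at 0, was above all controls. Lpl is 1 of the 20 adipocyte genes and was named after its values were seen. Which cells its level came from was not tested.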
